A study of Mus musculus with 15 samples.

Results

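The genes of oxidative phosphorylation were followed across livers of mice on standard chow, mice on a steatohepatitis-inducing diet, and mice on that diet given SR9009, a compound made to activate REV-ERBα and REV-ERBβ, nuclear receptors of the circadian clock. Members were every row of the deposited count table whose symbol names a subunit of complexes I to V (Nduf, Sdh, Uqcr and Cyc1, Cox4 to Cox8, Atp5) or a protein-coding gene of the mitochondrial genome, leaving out 8 rows with "-ps" in the symbol. This rule found 103 of 57132 gene identifiers: 40 for complex I, 4 for complex II, 9 for complex III, 19 for complex IV, 18 for complex V and 13 in the mitochondrial genome. Of these, 97 passed the filter on low counts and were tested. The remaining 6 were Ndufa11b, Ndufb4c, Cox7b2, Cox8b, Cox8c and one of the 2 identifiers that carry the symbol Atp5o, and 3 of them (Cox7b2, Cox8c and that Atp5o row) had no count in any library. Ndufa11b, Ndufb4c, Ndufs6b and Cox6c2 match the rule by symbol but are annotated as processed pseudogenes.

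All mice were male C57BL/6J, 8 weeks old at the start and studied for 18 weeks. The Chow group ate a standard diet. The Vehicle and SR9009 groups ate CDA-HFD, a high-fat diet that is amino-acid adapted and choline-deficient and that leaves the liver fatty, inflamed and fibrotic, and after 12 weeks of it received daily intraperitoneal injections for 6 weeks, of 15% Kolliphor in saline or of SR9009 at 100 mg/kg/day. Whether the Chow mice were injected is not stated, so diet and injection cannot be told apart in any comparison with Chow. Bulk liver RNA of 4 Chow, 5 Vehicle and 5 SR9009 libraries was analysed, at 29950509 to 45542335 counts per library; the fifth Chow sample was not analysed here.

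Oxidative phosphorylation takes place at the inner mitochondrial membrane. Complex I (NADH dehydrogenase) and complex II (succinate dehydrogenase) pass electrons to coenzyme Q, complex III passes them on to cytochrome c, and complex IV (cytochrome c oxidase) hands them to oxygen, while complex V uses the resulting proton gradient to make ATP. Complex II is encoded wholly in the nucleus. The other complexes combine nuclear subunits with subunits of the mitochondrial genome, which is transcribed separately inside the organelle. Hepatocytes are rich in mitochondria, so liver RNA holds much of both kinds of transcript.

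Several results turn on whether reads of a mitochondrial gene can be told from those of a nuclear copy. The sequence of mt-Co2, which encodes subunit 2 of complex IV, is shown here beside that of Gm28661, a pseudogene annotated in the nuclear genome, over positions 311 to 370 of mt-Co2 (GENCODE M21 transcripts), all in lower case because no base in this stretch is singled out.
mt-Co2: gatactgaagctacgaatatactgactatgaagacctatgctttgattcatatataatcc
Gm28661: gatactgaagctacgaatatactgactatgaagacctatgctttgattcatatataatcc
Over the 681 bases compared, the pair had 0 mismatches. The same held for mt-Co3 and Gm28437 (783 bases), mt-Atp6 and Gm10925 (678 bases), and mt-Nd4l and Gm10222 (294 bases), while mt-Nd3 and Gm28438 differed at 1 of 345 bases (T3C, counted from the first base of mt-Nd3, whose base is given first).

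For the nuclear members, a stretch upstream of the transcription start is shown for 6 genes. Those of Sdha, Sdhd and Cox6a1 cover positions -138 to -46, -119 to -30 and -202 to -108, and so stop short of the start. Matches nearer the start are not shown, among them an NRF1 match of Sdha at -10 to -1 and an ETS match of Cox6a1 at -16 to -10. The 6 were chosen as promoters of complexes II, IV and V that hold a match upstream of the start, plus that of Cox6b2, a member that moved the other way. Sequences are from the RefSeq promoter table on GRCm38.p6, on the gene's strand. Capitals mark matches to the motif of nuclear respiratory factor 1 (NRF1), GCGCA and GCGC with any 1 base between them, or, in Cox6b1, to the ETS motif CCGGAAG on the opposite strand. Matches of other motifs are left in lower case.
Sdha, catalytic flavoprotein of complex II, chr13:74350286-74350378, minus strand: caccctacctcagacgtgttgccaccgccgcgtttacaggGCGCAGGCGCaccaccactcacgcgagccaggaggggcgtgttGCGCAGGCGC
Sdhd, membrane anchor of complex II, chr9:50603879-50603968, minus strand: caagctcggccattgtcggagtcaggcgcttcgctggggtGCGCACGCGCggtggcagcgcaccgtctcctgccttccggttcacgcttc
Cox6a1, complex IV, chr5:115349066-115349160, minus strand: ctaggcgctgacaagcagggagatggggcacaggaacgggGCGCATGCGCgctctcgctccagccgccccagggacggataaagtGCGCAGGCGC
Atp5c1, gamma subunit of complex V, chr2:10080433-10080489, minus strand: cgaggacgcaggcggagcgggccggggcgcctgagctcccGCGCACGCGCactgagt
Cox6b1, complex IV, chr7:30626115-30626182, minus strand: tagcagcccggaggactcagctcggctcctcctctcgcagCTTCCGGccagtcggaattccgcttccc
Cox6b2, the testis-type counterpart of Cox6b1, chr7:4753095-4753184, minus strand: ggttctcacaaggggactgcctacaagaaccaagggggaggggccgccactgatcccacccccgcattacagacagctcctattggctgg

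The table gave a promoter, 250 bases before to 50 after the start, for 68 nuclear members. On either strand, the NRF1 motif was present in 17 of them (25%), against 5.19% of the 27025 genes in the table. The ETS motif was present in 16 (23.5% against 9.93%), the YY1 motif AAGATGGCG in 7 (10.3% against 1.64%) and the estrogen-related receptor motif TNAAGGTCA in 3 (4.41% against 1.43%). The element bound by REV-ERB and ROR receptors, searched as AA, any 1 base and TAGGTCA, was found in 0 of the 68 and in 0.259% of all promoters, which says only that these letters are absent from the windows. By complex, the NRF1 motif was in 2 of 3 promoters of complex II, 6 of 15 of complex V, 7 of 32 of complex I, 1 of 5 of complex III and 1 of 13 of complex IV.

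The first comparison, Vehicle against Chow, shows the members in the diseased liver. Transcripts of all 5 complexes and of the mitochondrial genome were lower in Vehicle relative to the bulk of expressed genes. Nuclear subunits were lower by about 0.50 on the log2 scale (median of 84 tested), and mitochondrially encoded ones by about 1.02 (median of 13). The mitochondrial median was -0.88 without mt-Atp8 and the 5 genes that share long stretches with nuclear pseudogenes. Of the 97 members tested, 86 fell and 3 rose in edgeR's quasi-likelihood test (Benjamini-Hochberg adjusted over 18181 genes, threshold 0.05), against 25.4% of all tested genes that fell and 29.8% that rose (55.2% in either direction). Of the 3, Cox6a2 and Cox6b2 passed the filter on low counts only through the diet-fed libraries, so their place among the tested members already required them to be higher there. The median over all tested genes was 0.02. In 81 of the 97, every Vehicle library was below every Chow library, a pattern found in 20.7% of all tested genes, and in 3 every Vehicle library was above (24.7%).

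**Figure D1:**
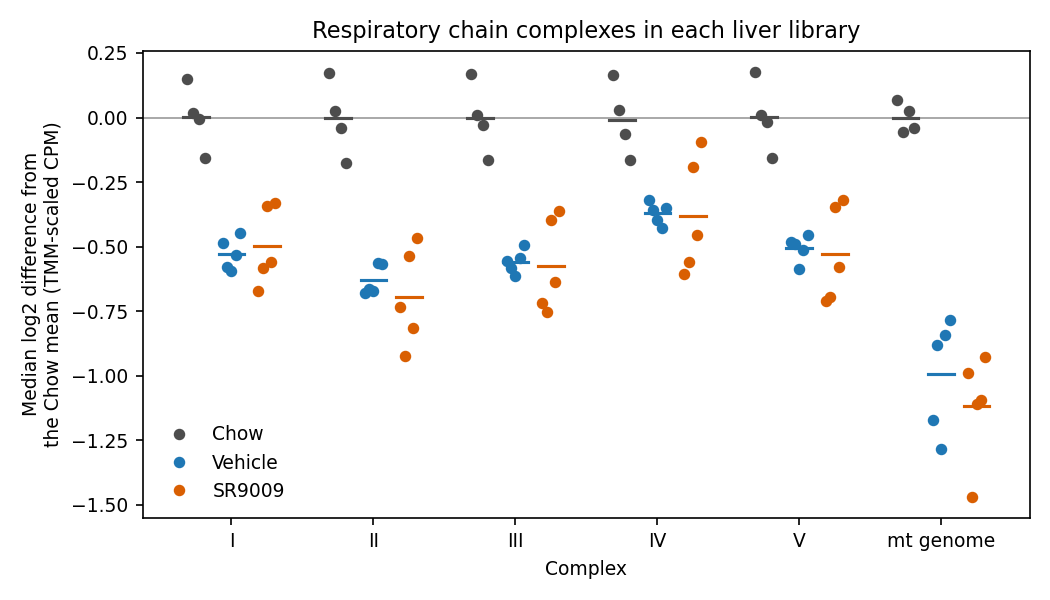
Each point is 1 liver library: the median over a complex's tested members of the log2 difference from the Chow mean, in TMM-scaled CPM; horizontal lines are group means. The 5 Vehicle and 5 SR9009 libraries lie below the 4 Chow libraries for the mitochondrial genome (mt genome) and for complexes I, II, III and V, while in complex IV the highest SR9009 library, at -0.10, lies above the lowest Chow library, at -0.17.

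How far this reads as a fall depends on the scaling. TMM factors, which assume that most genes do not change, were 0.753 to 0.824 in Chow and 1.02 to 1.15 in the diet-fed libraries. When libraries were scaled by total counts alone, the median of all tested genes moved to 0.50 in Vehicle against Chow, and the median of the nuclear members to -0.02. Then 20 members fell and 10 rose, against 7.59% and 57.1% of all genes. Relative to the median of all genes, the nuclear members stood 0.52 lower under either scaling and the mitochondrial ones 1.04 lower. Under both, 79 of 84 nuclear and 13 of 13 mitochondrial members lay below that median. Library factors shift all genes almost alike, so these distances, and those given below for gene lists, could hardly have differed. They are no test of the fall. Nuclear members made up 0.976% to 1.14% of all counts in Chow and 1.01% to 1.09% in Vehicle, so their share of the library overlapped between the groups. The mitochondrial genes' share did not overlap: it was 5.12% to 6.17% in Chow, 3.87% to 4.70% in Vehicle and 3.44% to 4.31% in SR9009.

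**Figure D2:**
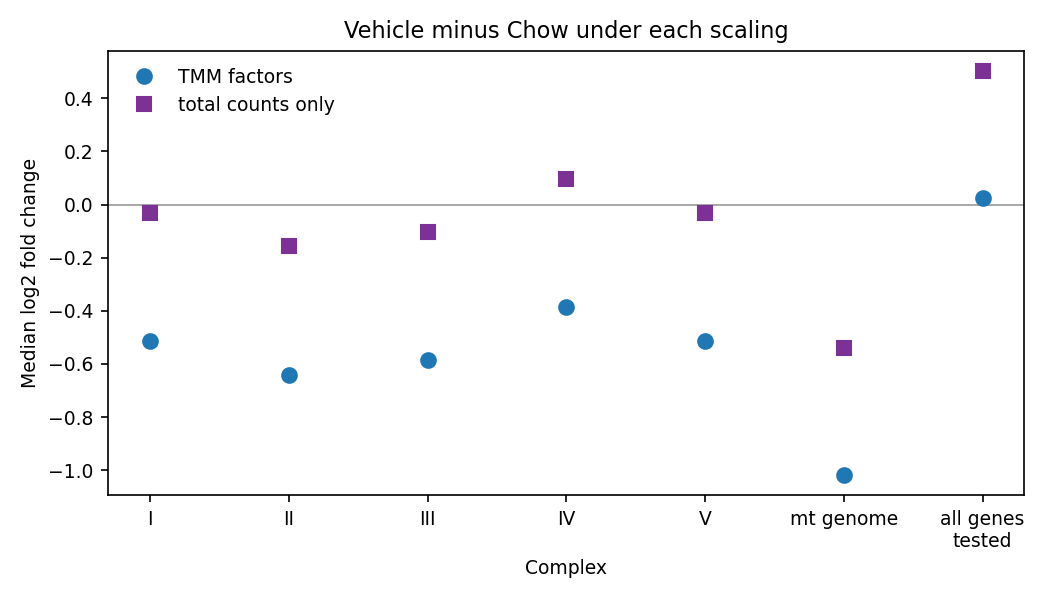
Median log2 fold change of each complex's tested members, and of all 18181 genes tested, in Vehicle minus Chow, with TMM factors (circles) and with total counts only (squares). The median of all genes moves from 0.02 to 0.50 and the complexes move with it, so that complexes I to V lie near 0 under total counts, at -0.16 to 0.10, and the mitochondrial genome at -0.54.

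In complex I, 34 of 38 tested members fell, none rose, and the median was -0.51. Ndufa4 and Ndufv1 were among its most abundant members. Ndufa4, grouped here by its symbol although its protein has also been assigned to complex IV, was at 298, 262, 253 and 228 CPM (counts per 1000000 of the TMM-scaled library total) in Chow and at 173, 154, 163, 163 and 174 in Vehicle, without overlap. It fell by 0.65 ± 0.10 (SE) on the log2 scale, with an edgeR adjusted p of 3.54e-05, and Ndufv1, a core subunit that binds NADH, fell by 0.58. The smallest adjusted p values of the complex belonged to Ndufb3, Ndufb11, Ndufa6 and Ndufb6, accessory subunits outside the catalytic core. Ndufb3 was between 48.9 and 53.5 CPM in all 4 Chow libraries and at 30.4, 25.7, 27.4, 31.6 and 32.0 in Vehicle. It fell by 0.82 ± 0.10 (SE), 1.77-fold, with an edgeR adjusted p of 2.75e-06. Ndufb11 fell by 0.79, Ndufb6 by 0.79 and Ndufa6 by 0.72, and these 4 accessory subunits also fell when libraries were scaled by total counts.

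The 4 members of complex I outside the threshold were Ndufa7, Ndufb2, Ndufb8 and Ndufa4l2, with log2 fold changes between -0.32 and -0.11. Ndufa4l2, a paralog of Ndufa4 whose induction under low oxygen is well known, stayed low, at 1.72 to 2.80 CPM in Chow and 1.12 to 2.02 in Vehicle. The largest change in this complex, a fall of 2.02, was that of Ndufs6b, a processed pseudogene at 0.70 to 1.55 CPM in Chow. Under total counts Ndufa7, Ndufa8, Ndufb7 and Ndufs4 were called higher, at 0.18 to 0.28.

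All 4 subunits of complex II, which is also an enzyme of the citrate cycle, fell, with a median of -0.64. Sdha, the catalytic subunit, was at 851, 798, 741 and 682 CPM in Chow and at 399, 432, 416, 524 and 491 in Vehicle. It fell by 0.76 ± 0.11 (SE), 1.70-fold, with an edgeR adjusted p of 2.39e-05, and was the only subunit of complex II called under total counts, at -0.28. Sdhb, the iron-sulfur subunit, fell by 0.64, and the membrane anchors Sdhd and Sdhc by 0.64 and 0.48. Chow and Vehicle libraries did not overlap for any of the 4. Sdha and Sdhd are the complex II genes whose promoters, shown in part above, carry NRF1 matches.

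All 9 members of complex III fell, within a narrow range from -0.69 (Uqcr11) to -0.42 (Uqcrq), and none of the 9 overlapped between the groups. Uqcrc2, a core scaffold protein, was at 277, 240, 259 and 221 CPM in Chow and 140, 171, 153, 174 and 158 in Vehicle. It fell by 0.65 ± 0.10 (SE), with an edgeR adjusted p of 3.12e-05. Cyc1, the cytochrome c1 heme protein, fell by 0.61, Uqcrc1 by 0.58 and Uqcrb by 0.59. None of the 9 was called when total counts were used.

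Complex IV was the least uniform. Of its 16 tested members 10 fell, 2 rose and 4 were not called, and the median, -0.38, was the nearest to 0. The subunits that fell are the common forms found in most tissues. Cox4i1 was at 361, 326, 312 and 282 CPM in Chow and 257, 250, 257, 239 and 250 in Vehicle, and fell by 0.36 ± 0.10 (SE), with an edgeR adjusted p of 0.00605. Cox6a1, the highest per kilobase at 604 CPM per kilobase in Chow, fell by 0.35. Cox7b fell most, by 0.68, followed by Cox5a (0.55) and Cox6c (0.53). Under total counts none of the 10 was called, and Cox4i1, Cox6a1 and Cox8a stood at 0.13, 0.13 and 0.10.

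The 2 that were higher, Cox6a2 and Cox6b2, are forms known from heart and skeletal muscle and from testis, and both were rare here. Cox6a2 had no count in 3 Chow libraries and 0.0992 CPM (3 counts) in the other, and was at 0.456, 0.564, 0.455, 0.708 and 0.299 CPM in Vehicle. Its summed counts were 3 in Chow and 115 in Vehicle, a rate 19.6 times as high. No Chow library reached the minimum of the filter, so this is a description and no test is given. Cox6b2 was at 0.316, 0.0858, 0.132 and 0.288 CPM in Chow and 0.752, 1.01, 0.890, 0.546 and 0.491 in Vehicle. Its summed counts were 23 in Chow and 169 in Vehicle, a rate ratio of 3.75, and again no Chow library reached that minimum. The lowest Vehicle library lay above the highest Chow library for each gene.

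Muscle transcripts could accompany Cox6a2, so the muscle and brown fat marker list is given beside it. Of its 12 genes, 4 were tested. Tnni2, a troponin of fast skeletal muscle, was at 0.0421 ± 0.0305 CPM (SD, n = 4) in Chow and 0.584 ± 0.264 (n = 5) in Vehicle. Like Cox6a2, it passed the filter on low counts only through the diet-fed libraries, so this is a description. Tnnt2, the cardiac troponin T, was at 0.264 ± 0.160 CPM in Chow and 0.933 ± 0.554 in Vehicle. It too could not have passed the filter on the 4 Chow libraries alone, so this is also a description. Ckm, Myh4 and Myh6 had no count in any Chow or SR9009 library, and Myh6 none in Vehicle. Cidea, also tested, stood at -1.60 under total counts in Vehicle against Chow and was not called there. The list's summed level was 406 to 741 CPM in Chow and 9.45 to 37.5 in Vehicle, nearly all of it Elovl3, a fatty acid elongase of brown fat that liver also expresses and that fell by 4.65. The part of muscle RNA in the level of Cox6a2 was not tested.

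Within a library, the ratio of an alternative subunit to its common form does not depend on scaling. The log2 ratio of Cox7a2l to Cox7a2 was higher in Vehicle than in Chow by 0.32. It had an exact two-sided permutation p of 0.00794, the smallest that 5 against 4 libraries allow. The ratio of Cox7a1, the muscle form, to Cox7a2 was higher by 0.60 (exact permutation p = 0.0159). The p-values of these ratios are unadjusted, since the adjustment over 5 pairs also took in the Cox6a2 and Cox6b2 pairs below. The ratio of Ndufa4l2 to Ndufa4 differed by 0.31, within the spread of the libraries (exact permutation p = 0.333). For Cox6b2 to Cox6b1 the difference was 2.32 and for Cox6a2 to Cox6a1 4.48. Both are given without a test, since these alternative forms passed the filter only through the diet-fed groups, and the second is set by the 0.5 added to the counts of the 3 Chow libraries at 0. Cox7a2l, also known as SCAF1 and described as a factor that joins complexes III and IV, was itself not called, at -0.09 ± 0.09 (SE), while Cox7a2 fell by 0.41.

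Cox4i2 and Cox8b, alternative forms of lung and of heart and muscle, were too rare to test as ratios in this comparison. Summed counts of Cox4i2 were 11 in Chow and 41 in Vehicle, a rate ratio of 1.90 with a 95% counting interval of 0.961 to 4.11. Those of Cox8b were 2 in Chow and 23 in Vehicle, a rate ratio of 5.87 (1.45 to 51.4), and Cox8b did not pass the filter on low counts. These intervals cover counting error only, not the spread between libraries, and are no test. Cox4i2 also passed the filter only through the diet-fed libraries.

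**Figure D3:**
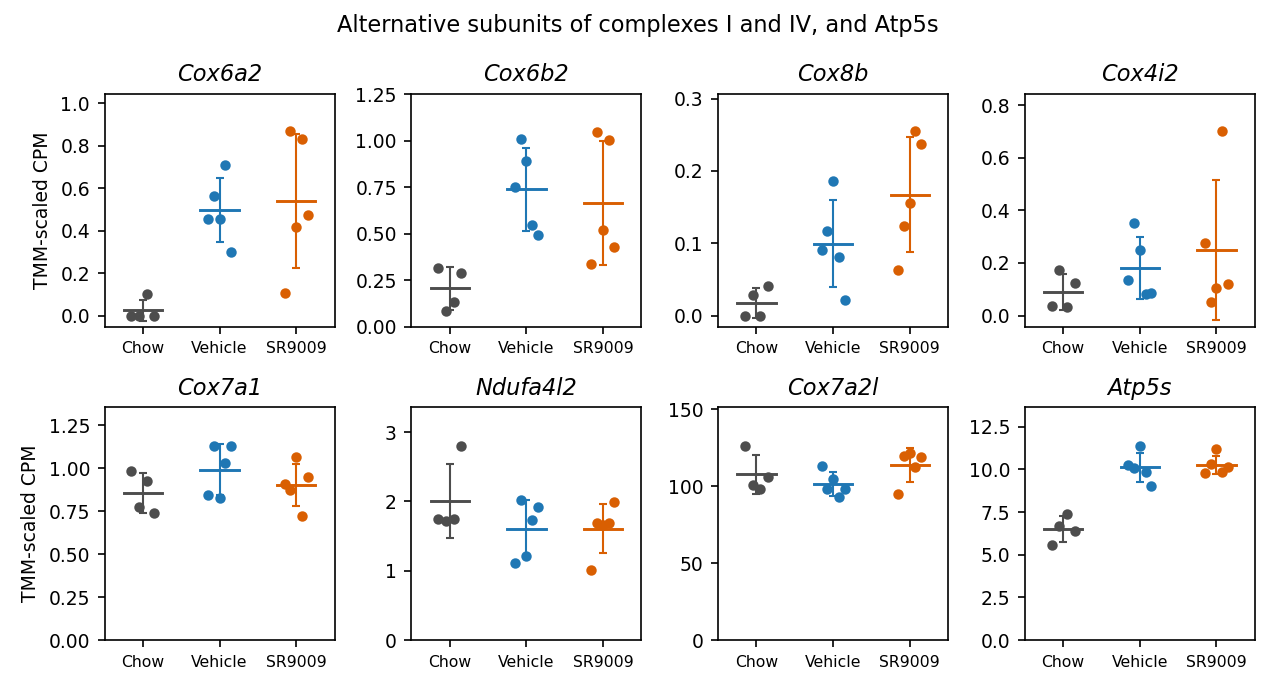
TMM-scaled CPM of 8 members in each library (points), with the group mean and SD (lines and bars); each panel has its own axis. Cox6a2, Cox6b2 and Atp5s are higher in every Vehicle library than in any Chow library, Cox7a2l overlaps between all groups, and Cox6a2, Cox6b2, Cox8b and Cox4i2 stay under 1.1 CPM in every library.

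In complex V, 16 of 17 tested members fell and 1 rose, with a median of -0.52. Atp5b and Atp5a1, the catalytic beta and the alpha subunit, were the most abundant nuclear members. Atp5b was at 1762, 1571, 1572 and 1359 CPM in Chow and 1075, 1286, 1108, 1212 and 1146 in Vehicle, and fell by 0.43 ± 0.10 (SE), with an edgeR adjusted p of 0.00187. Atp5a1 fell by 0.64, Atp5g3, a copy of the membrane ring subunit c, by 0.59, and Atp5k by 0.73. Atp5s, a coupling factor B-like protein whose current symbol in RefSeq is Dmac2l, went the other way. It was at 5.57, 6.70, 7.41 and 6.39 CPM in Chow and 10.3, 10.1, 11.4, 9.85 and 9.05 in Vehicle, and rose by 0.64 ± 0.11 (SE), with an edgeR adjusted p of 9.78e-05. It also rose under total counts, by 1.11. Atp5g2 and Atp5l share 86.4% and 69.0% of their 100-base windows with other annotated transcripts, so their counts are uncertain.

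**Figure D4:**
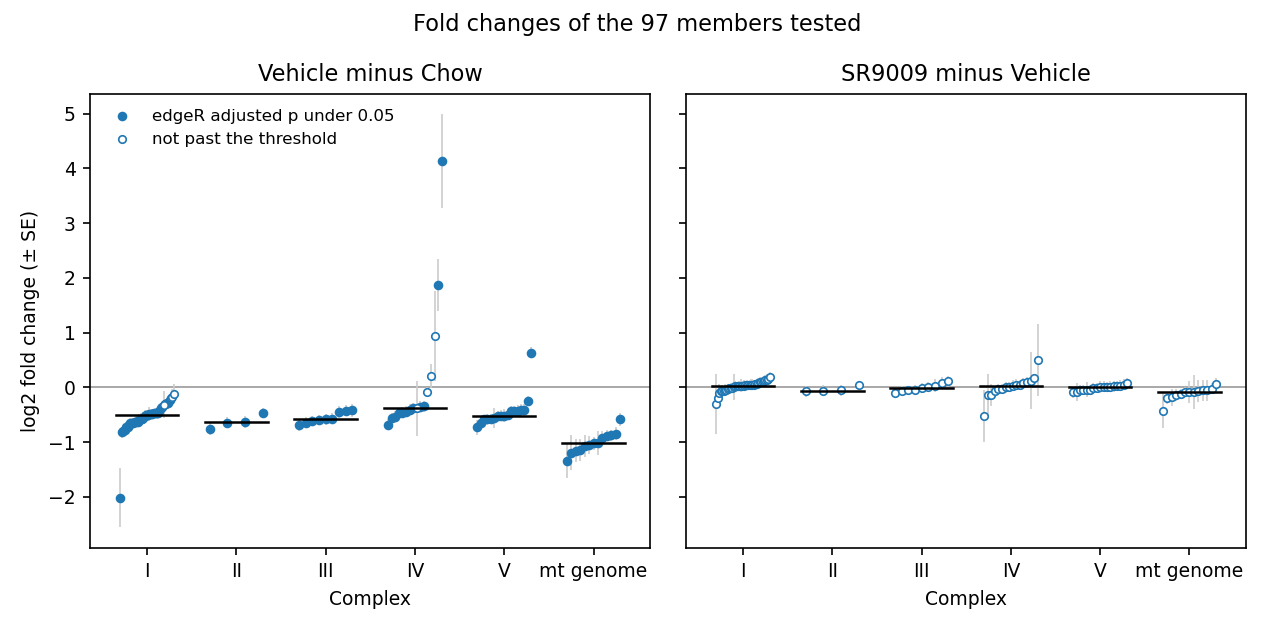
Log2 fold change with SE for each of the 97 tested members, ordered within each complex, in Vehicle minus Chow (left) and SR9009 minus Vehicle (right); black lines are medians and filled points passed edgeR's adjusted p of 0.05. On the left 86 members lie below 0 and are filled, with Cox6a2 at 4.13 the highest, a fitted value that depends on the prior count of a gene near 0 in Chow; on the right no point is filled.

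The mitochondrial genome had the largest shift of the 6 groups. All 13 genes fell, by 0.59 (mt-Nd1) to 1.34 (mt-Atp8), and none overlapped between Chow and Vehicle. mt-Co1, the catalytic subunit of complex IV, was at 27740, 27054, 31551 and 27688 CPM in Chow and 14739, 15998, 14806, 16481 and 17331 in Vehicle. It fell by 0.84 ± 0.11 (SE), with an edgeR adjusted p of 1.18e-05. mt-Cytb, the mitochondrial subunit of complex III, was at 12838, 11846, 13438 and 12188 CPM in Chow and 5608, 7265, 5608, 6363 and 6194 in Vehicle, and fell by 1.02 ± 0.12 (SE), 2.03-fold. Among the complex I subunits, mt-Nd5 fell by 1.06, mt-Nd2 by 0.92, mt-Nd4 by 0.88 and mt-Nd1 by 0.59. mt-Nd6, the only member encoded on the opposite strand of the mitochondrial DNA, fell by 0.88 ± 0.10 (SE), with an edgeR adjusted p of 1.69e-06. Under total counts 11 of the 13 remained called as lower, without mt-Nd1 (-0.10) and mt-Nd4l (-0.72).

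The gap between the mitochondrial and nuclear medians over all tested members, -0.52 in Vehicle against Chow, does not depend on scaling. The log2 ratio of summed mitochondrial to summed nuclear member counts was 2.16 to 2.55 in Chow, 1.94 to 2.11 in Vehicle and 1.85 to 2.09 in SR9009, so each diet-fed library was below each Chow library. The members of the mitochondrial genome fell into 2 ranges of abundance. Per kilobase, mt-Co1, mt-Cytb, mt-Nd2, mt-Nd1, mt-Nd4, mt-Nd5 and mt-Nd6 were between 2136 and 18452 CPM per kilobase in Chow. mt-Co2, mt-Co3, mt-Atp6, mt-Nd3, mt-Nd4l and mt-Atp8 were between 8.32 and 66.6.

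Of the 6 genes in the low range, 5 are those whose sequence recurs in a nuclear pseudogene, with 97.6% to 99.9% of their 100-base windows found there. mt-Co2 was at 55.2, 51.7, 43.1 and 32.3 CPM in Chow and 18.7, 25.6, 12.4, 27.7 and 28.3 in Vehicle. Gm28661, the pseudogene shown above, had a similar level, 51.3 CPM on average in Chow and 25.7 in Vehicle, and fell by 1.0 on the log2 scale against 1.02 for mt-Co2. All 10 pseudogene rows that share windows with a mitochondrial member fell, by 0.96 to 1.29. For the genes with long shared stretches the rows of the table therefore do not separate mitochondrial from nuclear copies, and their low level against mt-Co1 is a feature of the counting as deposited whose cause was not tested. mt-Atp8 shared no window with another annotated transcript and was still at 1.06 to 2.14 CPM in Chow. Copies outside annotated transcripts were not searched. mt-Co1 and mt-Nd4 shared 30.8% and 60.8% of windows and mt-Nd2 3.19%, and mt-Nd1, mt-Nd5, mt-Nd6 and mt-Cytb none. Without the 5 genes with long shared stretches and mt-Atp8, the median of the remaining 7 was -0.88. The nuclear median was -0.50, so the gap was then smaller than with all 13.

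**Figure D5:**
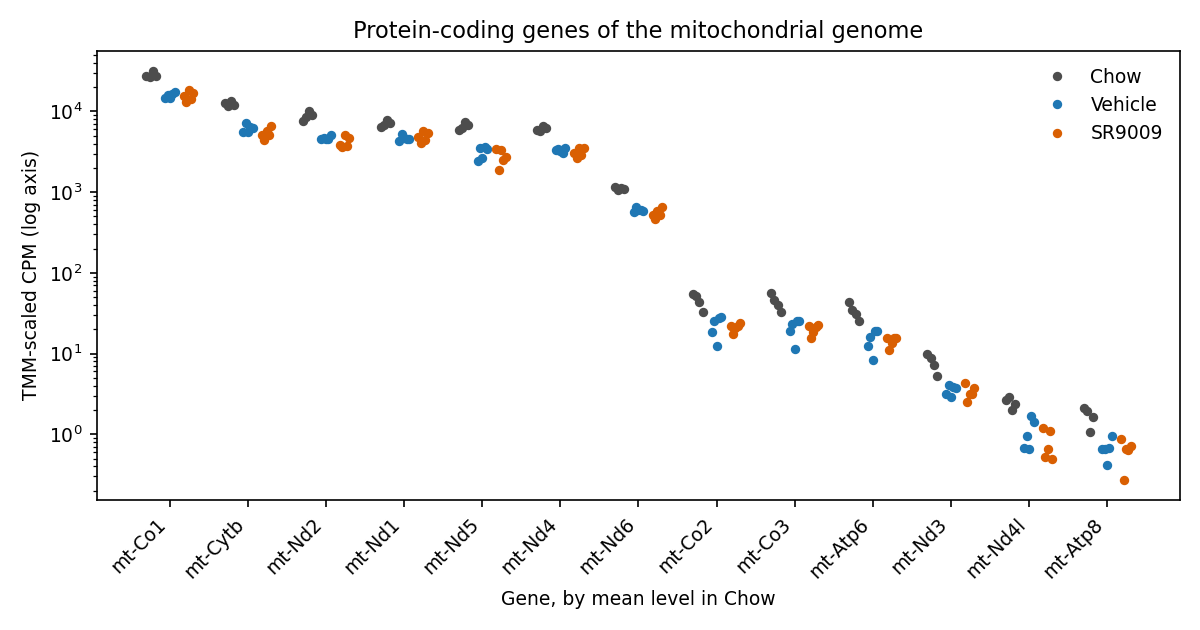
TMM-scaled CPM of the 13 mitochondrially encoded members in each library, on a log axis, ordered by mean level in Chow. Every Chow point of a gene lies above every Vehicle point of that gene, and mt-Co2, mt-Co3, mt-Atp6, mt-Nd3, mt-Nd4l and mt-Atp8 lie far below the other 7 genes.

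Markers of the liver's cell types moved with these groups, and their part in the results was not tested. In bulk RNA, fewer cells of a type and less RNA per cell cannot be told apart. Hepatocyte markers (17 with a row, none at 0) summed to 127941 to 171460 CPM in Chow and 92891 to 100083 in Vehicle, and 13 of 17 fell, with a median of -0.75. The 14 macrophage markers all rose and summed to 150 to 400 CPM in Chow and 2306 to 3363 in Vehicle. Stellate cell and pericyte markers summed to 267 to 371 CPM in Chow and 1146 to 1537 in Vehicle, with 11 of 12 tested higher. All 8 cholangiocyte markers rose. Of all tested genes, 29.8% rose and 25.4% fell. The marker lists were not screened for genes that passed the filter only through the diet-fed libraries. Of the 8 endothelial markers, 1 rose and 2 fell. Under total counts 5 endothelial markers were higher and none lower. Of the hepatocyte markers 1 was then higher and 9 lower, with a median of -0.27, against 57.1% and 7.59% of all genes. The counts of macrophage, stellate cell and cholangiocyte markers called did not change. With TMM factors, the medians of the nuclear complexes, -0.38 to -0.64, lay between that of the hepatocyte markers and that of all genes. The median of the mitochondrial genome, -1.02, lay below that of the hepatocyte markers. In SR9009 against Vehicle no marker on any of these lists was called (0 to 4 per list had an unadjusted p under 0.05), and the summed hepatocyte markers were 79972 to 100081 CPM in SR9009.

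Genes that build and serve the complexes were lower as well with TMM factors, and their calls also hung on the scaling. With TMM factors, 25.4% of all tested genes fell and 29.8% rose. Of the assembly factors, 13 of 18 for complex I, 5 of 10 for complexes II and III, 14 of 22 for complex IV and 5 of 5 for complex V fell, and none rose. Bcs1l, which inserts the iron-sulfur protein into complex III, fell by 0.81, Timmdc1, a complex I assembly factor, by 0.63, and Fmc1, needed for complex V assembly, by 0.83. Their list medians were between -0.37 and -0.28 with TMM factors, and between 0.10 and 0.20 under total counts. Relative to all genes, they stood 0.30 to 0.40 lower under total counts.

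Of the genes for mitochondrial DNA expression, 15 of 20 fell and none rose. Lrpprc, which stabilises mitochondrial mRNAs, fell from 178 ± 17.9 CPM (SD, n = 4) to 101 ± 14 (n = 5), by 0.82 on the log2 scale (edgeR adjusted p = 1.43e-05), and Tfb2m, a mitochondrial transcription factor, fell by 0.58. Under total counts 4 of the list were higher and 1 lower, against 57.1% and 7.59% of all genes. The list's median, 0.11, was then 0.39 under that of all genes. Lrpprc was then still lower and Tfb2m was not called, at -0.09. Of the 78 mitochondrial ribosomal protein genes, 53 fell and 1 rose (Mrpl54), with a median of -0.30. Under total counts 40 were higher and 4 lower, near the shares of all genes. Their median was then 0.18, which is 0.32 under the median of all genes. Mitochondrial chaperones and proteases followed, with 8 of 12 lower, among them Trap1, a mitochondrial HSP90 chaperone, by 0.59. Under total counts 4 were higher and none lower, against the same shares of all genes. Their median stood 0.46 under that of all genes, and Trap1 was at -0.11.

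Among regulators, 7 of 15 fell and none rose. Under total counts 8 were higher and 1 was lower, against 57.1% and 7.59% of all genes. The median of the regulators was then 0.25, which is 0.26 under the median of all genes. Esrrg, an estrogen-related receptor, fell by 1.80, and Ppara, the fatty acid-sensing receptor, by 0.95, though Ppara was not called under total counts, at -0.47. Gabpa, the ETS factor also called NRF2, fell by 0.39, but stood at 0.10 under total counts. Nrf1 was at 13.5 ± 0.803 CPM (SD) in Chow and 14.6 ± 2.05 in Vehicle and was not called, and neither was the coactivator Ppargc1a, at 9.12 ± 2.21 and 10.8 ± 2.18 CPM. Under total counts both rose, by 0.60 and 0.73. These last 2 were picked for their roles after their values were seen.

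In the citrate cycle and pyruvate dehydrogenase list, 12 of 18 fell and 2 rose, with a median of -0.41. Under total counts 6 were higher and 2 lower, against 57.1% and 7.59% of all genes. The list's median then stood 0.43 under that of all genes. Idh2, the mitochondrial NADP-dependent isocitrate dehydrogenase, rose from 118 ± 9.55 CPM (SD) to 245 ± 26.3, by 1.06 (edgeR adjusted p = 1.79e-07), and Idh3a rose as well. Of 17 genes of coenzyme Q synthesis and electron carriers, 9 fell and 1 rose, and Coq8a, a kinase-like protein of coenzyme Q synthesis, fell by 1.72. Under total counts 7 of these 17 genes were higher and 2 lower, against the same shares of all genes. Their median stood 0.38 under that of all genes. Of 19 inner membrane carriers and import genes, 9 fell and 1 rose, with a median of -0.22. Under total counts 12 were higher and none lower, again against 57.1% and 7.59% of all genes. Their median stood 0.24 under that of all genes. The 1 that rose with TMM factors was Slc25a4, the muscle-type ADP/ATP carrier, by 2.09. Of the 3 uncoupling proteins tested, 2 rose and none fell. Ucp2, an uncoupling protein abundant in macrophages, went from 22.8 ± 6.30 to 150 ± 14.1 CPM (SD), a rise of 2.71, and Slc25a27, an uncoupling protein of brain, rose by 1.99. Coq8a, Ucp2, Slc25a4, Slc25a27 and Idh2 kept their direction under total counts.

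The second comparison, SR9009 against Vehicle, asks whether the REV-ERB agonist altered these transcripts in mice on the same diet. None of the 97 members was called in edgeR (0.242% of all tested genes were), none had an unadjusted p under 0.05, and none was called by DESeq2 or limma-voom. In no member were the SR9009 and Vehicle libraries free of overlap, against 0.979% of all genes with SR9009 lower and 0.891% with SR9009 higher. The medians were 0.03 for complex I, -0.06 for complex II, -0.02 for complex III, 0.02 for complex IV, 0.01 for complex V and -0.09 for the mitochondrial genome, with 0.00 over all genes.

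The size that these data allow can be read from the intervals. Fitted ratios of SR9009 to Vehicle ranged from 0.695 to 1.41, and for 90 of 97 members the 95% interval lay within 1.5-fold in either direction. The other 7 were low in counts: Ndufs6b, Cox4i2, Cox6a2, Cox6b2, Cox6c2, mt-Atp8 and mt-Nd4l. For mt-Co1 the ratio was 0.984 (95% interval 0.841 to 1.15), for Sdha 0.961 (0.825 to 1.12), for Atp5b 0.968 (0.841 to 1.11) and for Cox4i1 1.07 (0.933 to 1.23).

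The 5 members with the smallest p were Ndufs6, Cox7a2l, mt-Cytb, Ndufb11 and Ndufa4. Ndufs6, an accessory subunit of complex I, was at 57.7, 43.8, 51.2, 49.9 and 56.5 CPM in Vehicle and 51.9, 53.4, 67.3, 56.9 and 64.5 in SR9009, a difference of 0.18 ± 0.10 (SE) with an edgeR adjusted p of 0.75. mt-Cytb was at 5152, 4468, 5727, 5137 and 6531 CPM in SR9009, a difference of -0.20 ± 0.11 (SE). Cox7a2l was at 113, 98.4, 105, 93.4 and 98.3 CPM in Vehicle and 95.3, 120, 122, 113 and 119 in SR9009, a difference of 0.16 ± 0.09 (SE). Each of the 3 overlapped between the groups. The ratio of Cox7a2l to Cox7a2 was higher in SR9009 by 0.21 (exact two-sided permutation p = 0.0238), which did not pass after adjustment over 6 pairs (p = 0.143), and none of the other 5 ratios passed. Of the genes on the related lists described above, none was called in edgeR, with 0 to 2 per list at an unadjusted p under 0.05.

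For the nuclear complexes, the medians of single libraries had a larger SD in SR9009 (0.152 to 0.228 over the 5 complexes) than in Vehicle (0.0421 to 0.0622), while for the mitochondrial genome the SD was 0.209 and 0.221. No test of this spread was made. The complex medians of single SR9009 libraries ran from -0.67 to -0.33 in complex I and from -0.92 to -0.46 in complex II, against -0.60 to -0.45 and -0.68 to -0.56 in Vehicle. SR9009 replicate 1 was the lowest of its group for 52 of 84 nuclear members, and replicates 5 and 3 the highest for 45 and 35. On total-count CPM these numbers were 53, 55 and 16. For 12 of 13 mitochondrial members, replicate 2 was the lowest. In Chow, replicate 1 was the highest for 72 of 84 nuclear members and replicate 4 the lowest for 67. On total-count CPM the Chow numbers were 44 and 64, so part of the Chow 1 ranking came with its scaling.

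Libraries also differed in how many of 1985 receptor genes of smell (olfactory, vomeronasal or trace amine) had any count. The number was 50 to 113 in the 4 Chow libraries, 63 to 243 in Vehicle and 69 to 179 in SR9009, and above 120 in 3 Vehicle and 3 SR9009 libraries. Within libraries under that number, 76 of 96 tested members fell and 2 rose in Vehicle against Chow, against 17.6% and 22.8% of the 17840 genes tested there, with medians of -0.49 for nuclear members and -0.87 for the mitochondrial genome. There mt-Nd4l and Cox6b2 were no longer called. Single-library medians for the mitochondrial genome were -0.84 and -0.78 in the 2 Vehicle libraries with few such genes and -1.28 to -0.88 in the 3 with many. In SR9009 against Vehicle no member was called within either class (0.0336% of genes were in the class with few and 0.129% in that with many), and 2 of 96 had an unadjusted p under 0.05 in the class with few.

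SR9009 against Chow uses the same Chow libraries as the first comparison, so its values are given beside those and are no second test of them. In it 85 members fell and 3 rose (25.7% and 30.5% of all tested genes, 56.2% in either direction). The 3 were Atp5s and, with the same limit of the filter as above, Cox6a2 and Cox6b2. Under total counts 31 fell and 10 rose (8.68% and 54.8%). Medians for complexes I to V were -0.50, -0.71, -0.60, -0.40 and -0.51, against -0.51, -0.64, -0.58, -0.38 and -0.52 in Vehicle against Chow, and for the mitochondrial genome -1.13 against -1.02. In 68 members every SR9009 library was below every Chow library, against 21.0% of all genes, and in 3 every one was above (25.5%). For Sdha the SR9009 libraries were at 463, 357, 472, 410 and 471 CPM, and for mt-Co1 at 15474, 13016, 18270, 14337 and 17017, in each case below all Chow libraries. Cox6a2 was at 0.106, 0.871, 0.416, 0.832 and 0.474 CPM, and Atp5s at 9.79, 10.3, 11.2, 9.85 and 10.2.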

How the data were processed

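Total RNA of whole mouse liver was sequenced (Illumina NovaSeq X Plus, per the labels' protocols). The submitters' processing notes name STAR 2.7.11b and the genome build GRCm39; not given in the sources used here were the counter, the gene annotation release and strandedness. The authors deposited raw counts per Ensembl identifier, with no normalization; 51880 of 57132 identifiers (90.8%), with 99.6% of counts, matched a symbol. Overlapping, antisense and near-identical genes are therefore uncertain.

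Counts of all 14 libraries were fitted together in edgeR 4.0.16 (R 4.3.3): filterByExpr (minimum count 10, minimum total 15; 18181 genes), TMM factors, group as the only term, robust quasi-likelihood F test, Benjamini-Hochberg over all genes, threshold 0.05. CPM are scaled by the TMM factors unless stated otherwise. Alternatives used DESeq2 1.42.0 and limma 3.58.1. Paralog ratios are of counts plus 0.5 in each library. Sequence sharing was counted in 100-base windows of GENCODE M21 transcripts, and gene lengths, shared windows and promoters came from an earlier genome build than the counts. The pipeline was tested on simulated data.

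The members and gene lists were chosen with earlier results of these data known. Values are named for all complex II and mitochondrial members; per complex, the 3 highest members and up to 4 with the smallest adjusted p in each direction; both genes of each paralog pair; the 5 smallest p in SR9009 against Vehicle; and up to 3 genes per related list by adjusted p. One item that this rule selects is not reported here. Others named, among them Uqcr11, Atp5k, Ndufs6b, Ndufa7, Ndufa8, Ndufb7, Ndufs4, Atp5g2, Atp5l, Ppara, Idh3a and Mrpl54, were chosen after their values were seen. The labels describe the samples as mice of each group but do not tie each library to its own animal, so p-values measure the spread between these libraries. The 26 library pairs within groups all differed beyond sampling noise (mean chi-square of at least 15.7 per gene). Depths of 29950509 to 45542335 counts make 3 counts equal to 0.0659 to 0.100 CPM of unscaled total.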

Additional observations from a re-analysis of the deposited data

Results flagged for a closer look

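In 4 instances 1 library stood apart from the rest of its group, by the ratio of its gap to the whole range of the group; 168 groups of libraries were examined over 53 members, and chance alone marks about 1 in 20. Cox6a2 was at 0.0992 CPM in 1 Chow library and at 0 in the other 3. Ndufa4l2 was at 2.80 CPM in 1 Chow library, with the next at 1.75. mt-Co1 was at 31551 CPM in 1 Chow library, with the next at 27740. mt-Nd2 was at 5105 CPM in 1 Vehicle library, with the next at 4652.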

How the results depend on the processing

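Scaling was the setting that moved the comparisons with Chow. With total counts and no further factor, 30 members were called in Vehicle against Chow (20 lower, 10 higher) and 41 in SR9009 against Chow (31 lower, 10 higher). The medians of complexes I to V were then -0.033, -0.16, -0.10, 0.095 and -0.031 in Vehicle against Chow and -0.049, -0.26, -0.15, 0.051 and -0.062 in SR9009 against Chow, and those of the mitochondrial genome -0.54 and -0.67. Among the members selected for naming, the sign turned for Atp5b (0.058), Cox4i1 (0.13), Cox5b (0.012), Cox6a1 (0.13), Cox6b1 (0.020), Cox7a2 (0.075), Cox8a (0.097), Ndufa4l2 (0.16), Sdhc (0.0050), Uqcrq (0.063) and Cox7a2l (0.40), of which only Cox7a2l was called (edgeR adjusted p = 0.000721). Over all 84 nuclear members, 79 were below 0 with TMM factors and 45 with total counts. DESeq2 size factors and factors computed without mitochondrial genes left the nuclear and mitochondrial medians at -0.50 and -1.02.

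Leaving out each library in turn gave 85 to 90 called members in Vehicle against Chow, 82 to 88 in SR9009 against Chow and 0 in SR9009 against Vehicle. Cox7a2l in Vehicle against Chow ranged from -0.13 to 0.0036, with its sign turned only without Chow replicate 1. In SR9009 against Vehicle the ratio differences ranged from -0.45 to 0.42 for Cox4i2, -0.47 to 0.24 for Cox6a2 and 0.15 to 0.25 for Cox7a2l, the last with an adjusted exact permutation p of 0.0476 without SR9009 replicate 5. Within libraries with few receptor genes, an alternative chosen after seeing the data, mt-Nd4l was at -0.68 (edgeR adjusted p = 0.114) and Cox6b2 at 1.36 (0.0755).

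Nothing in the labels says that the replicate numbers pair animals. Same-numbered libraries showed no strong shared deviation (correlations from -0.36 to 0.20), which cannot exclude a weak pairing. With the replicate number as a block, 84 members fell and 3 rose in Vehicle against Chow. The ratio differences were then 4.65 for Cox6a2, 0.57 for Cox7a1, 2.46 for Cox6b2 and 0.35 for Cox7a2l. No p is given for them, since 4 pairs cannot pass an exact permutation test. Members under about 1 CPM (Cox6a2, Cox6b2, Cox4i2, Ndufs6b) are limited by depth.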
